A study of Mus musculus with 6 samples.

Results

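Of 34298 gene names on the arrays, 71 named Cyp genes of families 1 to 4, selected by name, with earlier results of these data known. They were read by 94 of 55681 distinct probes, and the brightest of a gene's probes, by its mean log2 value on the 6 arrays, stood for the gene. The arrays held RNA from epithelial organoids at passage 0 of mice 1, 2 and 4, and each mouse gave 1 esophageal (Esophagus_Squamous) and 1 stomach (Stomach_Columnar) culture. All were harvested on day 8, apart from the stomach organoids of mouse 4, which were taken on day 7. Genotype, strain and age of these mice are not in the labels, and all 6 cultures are labelled Control. Per the methods, both media contained EGF, noggin, FGF-10, a TGF-β receptor inhibitor and a ROCK inhibitor, the stomach medium also WNT3A, R-spondin1 and gastrin, and the esophagus medium forskolin. Tissue of origin and medium therefore cannot be told apart.

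Cytochrome P450 enzymes are heme proteins of the endoplasmic reticulum that insert 1 oxygen atom into drugs, toxins, steroids and fatty acids, with electrons passed on by cytochrome P450 reductase. In the mouse, families 1, 2 and 3 hold most of the enzymes that act on foreign compounds and many that turn arachidonic acid into epoxides, and family 4 hydroxylates the ends of fatty acid chains. Most of these genes lie in clusters of near copies. The liver is their main site, while lining epithelia such as skin, airway and gut use a narrower set that acts on local lipids and on what reaches the surface.

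Between 45.5% and 51.1% of the non-control spots of an array were well above background, and no spot was saturated. Across probes, Pearson's r was at least 0.979 within a tissue and at most 0.94 between tissues. The esophageal organoids of mouse 4 were hybridised on a slide of their own, and the other 5 arrays shared 1 slide. Of 6 squamous markers, 5 were higher in the esophagus, and all 8 gastric columnar markers were higher in the stomach. The exception was Trp63, whose brightest probe was 1.22 lower in esophageal organoids on the log2 scale. That value is of 1 probe, and further Trp63 probes were not examined here. By immunostaining, the paper describes its esophageal organoids as positive for P63 protein. None of 8 fibroblast and smooth muscle markers passed background on every array of either tissue. The log2 of their summed intensity ran from 7.88 to 8.41 in the esophagus and from 7.98 to 8.08 in the stomach. Of 3 endothelial genes, Kdr and Pecam1 were detected on all 6 arrays, neither called, and Cdh5 on none. Of 6 leukocyte genes, 3 were detected in each tissue, with a log2 summed intensity of 12.38 to 14.90 in esophageal and 13.55 to 14.08 in stomach organoids. Itgam, 1 of these, was higher in stomach organoids (means of 10.72 in esophageal and 13.34 in stomach organoids, limma adjusted p = 0.000662). The leukocyte genes Ptprc and Lyz2 were on no array above background, and neither were the hepatocyte genes Alb, Fgb and Serpina1a. Of the other hepatocyte genes, Apoa2 was detected on all 6 arrays, and Ttr and Ahsg on the 3 stomach arrays alone, with Ttr called. Of 6 intestinal genes, Fabp2 was detected on all 6 arrays (means of 8.36 in esophageal and 6.45 in stomach organoids, not called), and Cdx2 and Muc2 on all 3 stomach arrays, with Cdx2 called higher there. Muc2 was also above background on 2 esophageal arrays, and Cdx2 on none. Alpi was above background on 1 stomach array, and Sis and Cdx1 were on none. The log2 summed intensity in esophageal and stomach organoids ran from 8.83 to 9.09 and from 9.25 to 9.69 for the hepatocyte list, and from 8.05 to 10.07 and from 9.30 to 10.25 for the intestinal list. The part of such cells in the results was not tested.

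On these arrays the Cyp genes were mostly silent or dim, and those that differed were mostly higher in the stomach. In esophageal organoids 18 of the 71 genes (25.4%) were well above background on all 3 arrays, against 48.4% of all gene names, and in stomach organoids 28 (39.4%), against 51.2%. Both tissues had 14 genes in common. A further 4 were detected in full only in the esophagus and 14 only in the stomach, 8 rose above background on some arrays, and 31 did so on none. At a limma adjusted p under 0.05, 17 genes (23.9%) were higher in stomach organoids and 3 (4.23%) in esophageal organoids. Among all gene names, 7.7% were higher in stomach organoids and 7.15% in esophageal ones. The median difference, esophagus minus stomach on the log2 scale, was -0.13 over the 71 genes and 0.03 over all gene names. The values of the 2 tissues did not overlap for 35 genes, which is 49.3% of the genes against 31.6% of all gene names. Stomach arrays were above for 25 of them (35.2% of the 71 genes, against 14.7% of all gene names). Esophagus arrays were above for 10 (14.1%, against 16.9%). The size of a difference moved with the background step. Of 19 called genes with a fold or a bound, 13 had one over 1.5 times lower with a normexp offset of 50, which adds a larger constant to each intensity, and 16 had one over 1.5 times higher with 75th percentile scaling of background-subtracted intensities. A bound ("at least") is therefore one on the deposited log2 scale, and both values stand beside it where they moved that far. In bulk RNA, fewer cells of a type and less RNA per cell cannot be told apart.

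**Figure D1:**
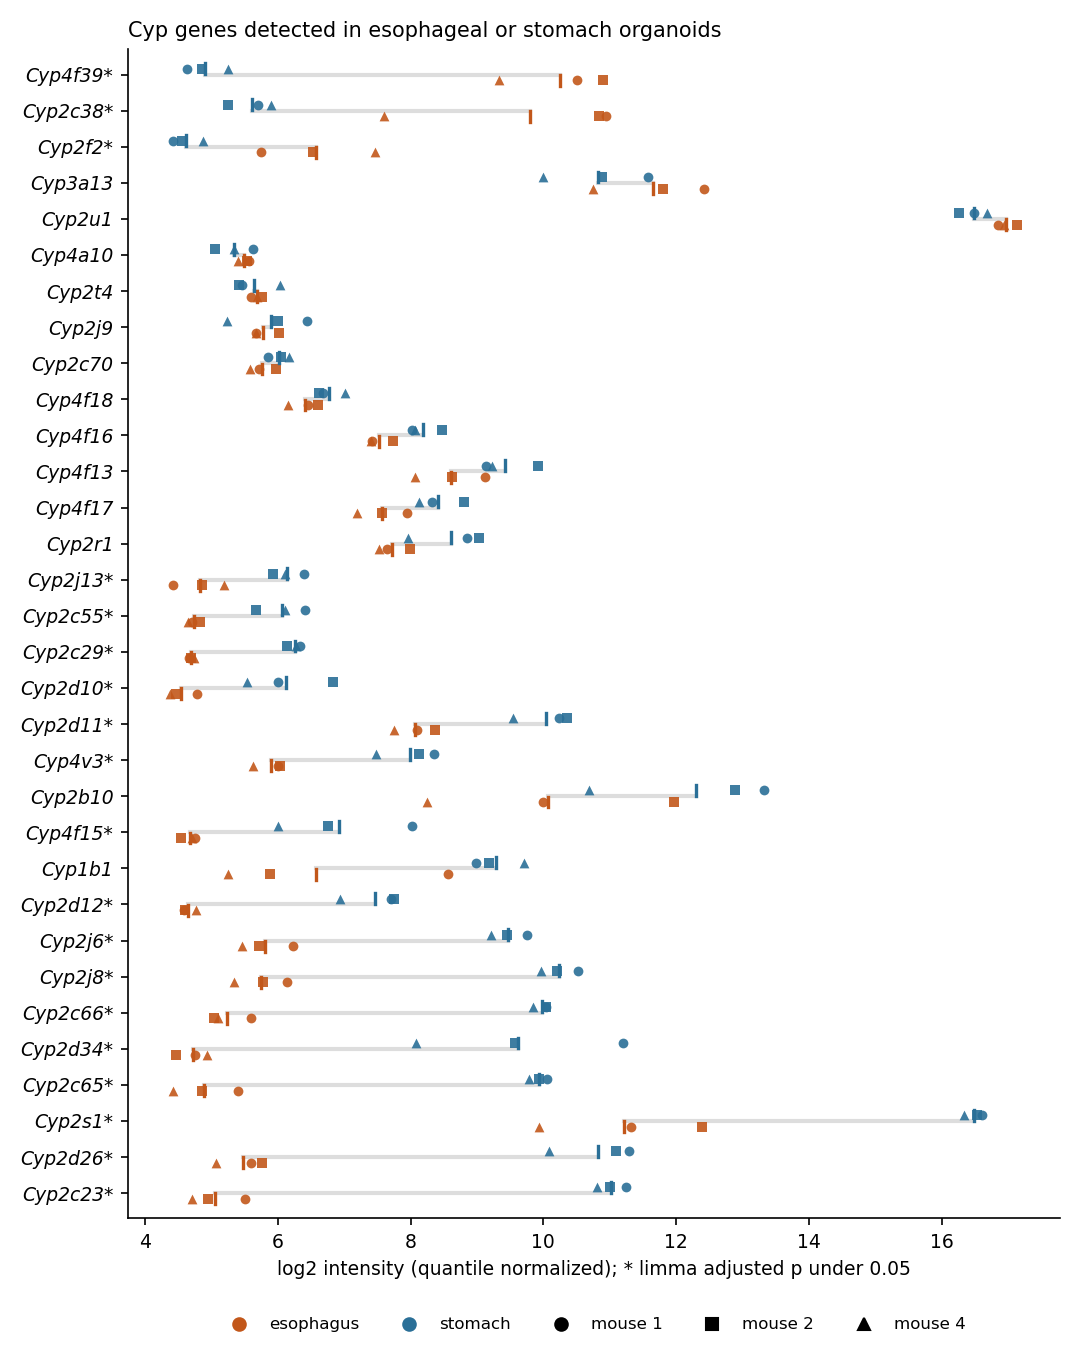
Log2 intensity of the 32 Cyp genes detected in esophageal organoids, stomach organoids or both. Each symbol is 1 array (circle mouse 1, square mouse 2, triangle mouse 4), vertical ticks are means of 3 arrays, and asterisks mark a limma adjusted p under 0.05. The genes run from Cyp4f39, 5.34 higher in the esophagus, at the top to Cyp2c23, 5.96 lower there, at the bottom.

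Cyp4f39 was the Cyp gene that differed most in favor of the esophagus. Its product, the counterpart of human CYP4F22, adds a hydroxyl group to the far end of ultra-long fatty acids for the acylceramides of the skin barrier. The gene (NM_177307, probe at chr17:32629616-32629675 of mm9) had log2 values of 10.51, 10.90 and 9.34 in esophageal organoids of mice 1, 2 and 4. In their stomach organoids it had 4.62, 4.85 and 5.25, on no array well above background. The groups did not overlap, and the lowest esophageal value was that of mouse 4. Its level was higher in the esophagus by at least 39.5-fold (difference 5.34, SE 0.39, limma adjusted p = 7.43e-05). The bound was 17.6-fold with a normexp offset of 50 and 86.8-fold with 75th percentile scaling. Of the 15 genes of the oxylipin list, 3 are named here after their values were seen, because their enzymes act on the same lipids. On that list 5 genes were higher in esophageal organoids, 2 in stomach organoids, and 8 were not called. The shares over all gene names were 7.15% and 7.7%. Alox12b, a lipoxygenase that oxidises the linoleate of acylceramides, had 14.43, 13.58 and 8.65 in the esophagus and 5.26, 4.99 and 5.17 in the stomach (limma adjusted p = 0.0107). Aloxe3, which acts on the product of Alox12b, differed by 4.31 (SE 0.96, limma adjusted p = 0.0248). Ephx3, an epoxide hydrolase, differed by 4.75 (SE 0.40, limma adjusted p = 0.000164). Without esophagus replicate 4, the bound for Alox12b went from 135-fold to 466-fold and the fold of Aloxe3 from 19.8 to 49.1. They were 62.7-fold and 13-fold without esophagus replicate 1, and 84.3-fold and 12.1-fold without esophagus replicate 2. With a normexp offset of 50 they were 66.6-fold and 11.9-fold and with 75th percentile scaling 377-fold and 54.5-fold, while the fold of Ephx3 went from 27 to 16.8 and 42.7. Only the Ephx3 call held under each alternative tried. The Alox12b call was lost without stomach replicate 2 (adjusted p = 0.0536), and the Aloxe3 call without any 1 array other than esophagus replicate 4 (0.0612 to 0.0914). Both were also lost with a normexp offset of 50 (0.0569 and 0.0847) and with trended and robust variances (0.0837 and 0.0999). For all 4 genes, mouse 4 gave the lowest esophageal value, and each esophageal array stood above each stomach array. Cyp2b19, an arachidonic acid epoxygenase known from keratinocytes of the epidermis, was on no array above background.

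The promoter of Cyp4f39 is shown because the gene stood apart from its neighbors. The core letters GCGTG, which the aryl hydrocarbon receptor binds, were searched on both strands of the 250 bases before the start and are in capitals here (RefSeq, GRCm38.p6, chr17:32452473-32452722, + strand).
Cyp4f39: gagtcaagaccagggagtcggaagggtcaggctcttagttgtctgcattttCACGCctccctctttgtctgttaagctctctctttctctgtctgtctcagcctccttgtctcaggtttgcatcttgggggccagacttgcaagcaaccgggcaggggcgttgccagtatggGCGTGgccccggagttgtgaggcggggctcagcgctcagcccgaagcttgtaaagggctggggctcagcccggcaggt
The letters occur 2 times, once on each strand. They were in 11 of the 58 Cyp promoters in the table (19%) and in 30.9% of the promoters of all 27025 genes.

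Cyp2c38, of the 2c subfamily, and Cyp2f2, an enzyme of airway club cells that activates naphthalene, were the other 2 genes higher in esophageal organoids. Cyp2c38 (NM_010002, chr19:39465415-39465474) had log2 values of 10.95, 10.84 and 7.60 in the esophagus and 5.70, 5.25 and 5.89 in the stomach, where 2 of 3 arrays were above background. Mouse 4 was again far below the other esophageal cultures and still above every stomach value. The fold was 18.1 (difference 4.18, SE 0.81, limma adjusted p = 0.0136), and 38.7 without esophagus replicate 4 or with the slide as a block. It was 10.9 with a normexp offset of 50, 38.1 with 75th percentile scaling and 4.15 with its probes averaged. Its second probe was on no array above background and did not differ (-0.08, adjusted p = 0.832). Cyp2f2 (NM_007817, chr7:27918570-27918629) had 5.74, 6.53 and 7.47 in the esophagus and 4.42, 4.55 and 4.87 in the stomach, on no stomach array above background. Here mouse 4 was the highest esophageal culture. The gene was higher in the esophagus by at least 3.51-fold (difference 1.97, SE 0.39, limma adjusted p = 0.0155), a bound of 1.95-fold with a normexp offset of 50. Both calls were lost when either esophagus replicate 2, stomach replicate 1 or stomach replicate 2 was left out, with adjusted p of 0.0502 to 0.0684 for Cyp2c38 and 0.0505 to 0.0761 for Cyp2f2. They were also lost with a normexp offset of 50 (0.0629 and 0.0935). Each of these left Cyp4f39 as the one gene higher in the esophagus.

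Cyp2c23, of the 2c subfamily, had the largest stomach excess of the 71 genes on the deposited log2 scale. These enzymes oxidise drugs and turn arachidonic acid into epoxides and hydroxy acids, and several are known from the gut. Of 13 measured genes, 5 were higher in the stomach, 1 in the esophagus and 7 were not called, 6 of these on no array above background. Cyp2c23 (NM_001001446, also named Cyp2c44, an epoxygenase of kidney and liver) had log2 values of 11.25, 10.997 and 10.81 in stomach organoids of mice 1, 2 and 4. In the esophagus it had 5.50, 4.96 and 4.71, none well above background. It was higher in the stomach by at least 59.4-fold (difference -5.96, SE 0.23, limma adjusted p = 2.29e-06). With a normexp offset of 50 the bound was 28.4-fold, and with 75th percentile scaling 158-fold. At the offset of 50, the fold of Cyp2s1 was larger, at 38.5, so the rank of Cyp2c23 depends on the background step. Several stomach folds are bounds, and their true order is not known.

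Cyp2c65 and Cyp2c66, neighboring genes that are known from stomach and intestine, ran in parallel. Cyp2c65 (NM_028191) had 10.06, 9.94 and 9.79 in the stomach and 5.40, 4.85 and 4.42 in the esophagus. Cyp2c66 (NM_001011707) had 10.04, 10.05 and 9.84 in the stomach and 5.59, 5.04 and 5.09 in the esophagus. In both, the 3 stomach cultures lay within 0.3 of each other and the esophageal ones were at background. Cyp2c65 was higher in the stomach by at least 28.6-fold (difference -5.04, SE 0.25, limma adjusted p = 8.82e-06) and Cyp2c66 at least 26.1-fold (difference -4.74, SE 0.19, limma adjusted p = 2.58e-06). The bounds were 13.7-fold and 14.1-fold with a normexp offset of 50, and 69.2-fold and 78.5-fold with 75th percentile scaling. Cyp2c29, a liver enzyme, and Cyp2c55, a gut enzyme that makes hydroxy derivatives of arachidonic acid, were dimmer. They were at least 2.45-fold and at least 2.15-fold higher in the stomach (differences -1.55 and -1.33, limma adjusted p = 0.000225 and 0.00461), and at least 4.88-fold and 4.3-fold with 75th percentile scaling. The bound for Cyp2c29 was 1.59-fold with a normexp offset of 50. Cyp2c70, a bile acid hydroxylase of the liver, was above background on all stomach and 2 esophagus arrays and differed by -0.26 (limma adjusted p = 0.427).

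The promoters of Cyp2c65 and Cyp2c66 are shown because the genes moved together. Capitals mark CAAAGTCCA, letters that the factor HNF4A binds (searched on both strands of the 250 bases before the start), or in Cyp2c66 the window that differs from them by 1 base. Both are from RefSeq, GRCm38.p6, + strand, at chr19:39060756-39061005 and chr19:39113648-39113897.
Cyp2c65: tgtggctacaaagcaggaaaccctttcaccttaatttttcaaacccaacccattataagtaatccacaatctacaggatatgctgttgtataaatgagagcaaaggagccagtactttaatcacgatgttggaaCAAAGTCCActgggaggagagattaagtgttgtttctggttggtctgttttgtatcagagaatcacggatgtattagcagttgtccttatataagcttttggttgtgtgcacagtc
Cyp2c66: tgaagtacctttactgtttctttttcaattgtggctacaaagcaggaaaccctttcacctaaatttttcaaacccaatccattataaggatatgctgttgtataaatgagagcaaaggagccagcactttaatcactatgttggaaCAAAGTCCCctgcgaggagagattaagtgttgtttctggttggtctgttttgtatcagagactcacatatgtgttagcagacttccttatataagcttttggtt
In a local alignment, 208 of 238 columns (87.4%) were identical. Counted from 1 at the first letter of CAAAGTCCA, the Cyp2c66 window carries the substitution A9C. The 9 letters were in 6 of the 58 Cyp promoters (Cyp2c65, Cyp2c67, Cyp2c68, Cyp2c70, Cyp3a11 and Cyp3a16, 10.3%) and in 0.451% of all promoters. Of those 6 genes, only Cyp2c65 was called higher in the stomach, and Cyp2c70 was the other one above background there.

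The 2d subfamily, mouse relatives of the human drug-metabolising enzyme CYP2D6, was the other large block of stomach genes. Of 9 genes, 5 were higher in the stomach, none in the esophagus, and the median difference was -1.59. Cyp2d26 (NM_029562) had 11.29, 11.10 and 10.08 in stomach organoids and 5.59, 5.76 and 5.07 in esophageal ones, 2 of which were above background. The fold was 40.7 (difference -5.35, SE 0.34, limma adjusted p = 3.4e-05), with 22-fold at a normexp offset of 50 and 126-fold with 75th percentile scaling. Cyp2d34 (NM_145474) varied most among the stomach cultures, with 11.20, 9.58 and 8.08, and had 4.76, 4.46 and 4.93 in the esophagus. Even the stomach organoids of mouse 4, the lowest of the 3, lay above every esophageal value. It was higher in the stomach by at least 24.3-fold (difference -4.90, SE 0.67, limma adjusted p = 0.00242). The bound was 14-fold without stomach replicate 1 and 41.4-fold without stomach replicate 4, and 11.49-fold with a normexp offset of 50 and 58.8-fold with 75th percentile scaling. Its second probe, above background on 1 stomach array, differed by -0.36 (adjusted p = 0.298). The mean of both probes gave a fold of 6.19, which is not exact, since neither probe was above background on any esophageal array. Cyp2d12 was higher in the stomach by at least 5.65-fold (limma adjusted p = 0.000162), and Cyp2d10 at least 2.25-fold (limma adjusted p = 0.0153). With 75th percentile scaling these bounds were 14.8-fold and 3.86-fold, and with a normexp offset of 50 that of Cyp2d12 was 3-fold. Cyp2d11, above background on all 6 arrays, was 3.92-fold higher (difference -1.97, SE 0.26, limma adjusted p = 0.00209). Cyp2d22, often set beside CYP2D6, was above background on 1 stomach array and differed by -0.52 (limma adjusted p = 0.111), and by -1.81 (adjusted p = 0.00921) with 75th percentile scaling. The call for Cyp2d10 was lost without esophagus replicate 2 (adjusted p = 0.0557), without stomach replicate 1 (0.0572) and with a normexp offset of 50 (0.0655).

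The 2j genes, some of which encode epoxygenases of arachidonic and linoleic acid, gave 3 of 6 higher in the stomach. Cyp2j8 (NM_001104927) had 10.53, 10.20 and 9.96 in the stomach and 6.14, 5.78 and 5.33 in the esophagus, and Cyp2j6 (NM_010008), known from the gut lining, had 9.75, 9.45 and 9.22 and 6.23, 5.72 and 5.46. In both genes the arrays kept one order in each tissue, mouse 1 highest and mouse 4 lowest. Of the esophageal arrays, 2 were above background for Cyp2j8 and all 3 for Cyp2j6. The folds were 22.3 (difference -4.48, SE 0.24, limma adjusted p = 1.5e-05) and 12.7 (difference -3.67, SE 0.24, limma adjusted p = 3.93e-05). With the probes of each gene averaged they were 4.48 and 5.7, with a normexp offset of 50 13.8 and 8.15, and with 75th percentile scaling 51 and 24. A second Cyp2j6 probe differed by -1.35 (adjusted p = 0.000516), while a second Cyp2j8 probe was on no array above background. Cyp2j13 was higher in the stomach by at least 2.05-fold (limma adjusted p = 0.00775), by 1 of its 3 probes, and at least 4.8-fold with 75th percentile scaling. Cyp2j9, known from the brain, was above background on all 6 arrays and differed by -0.11 (limma adjusted p = 0.878). Ephx2, the soluble hydrolase that opens arachidonic acid epoxides, had 10.97, 10.77 and 10.53 in the stomach and 6.11, 6.12 and 5.67 in the esophagus (difference -4.79, SE 0.19, limma adjusted p = 2.76e-06). Its fold of 27.7 was 17.5 with a normexp offset of 50 and 55.8 with 75th percentile scaling. Ephx1, the microsomal hydrolase, differed by -0.23 (limma adjusted p = 0.505).

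Cyp2s1, an enzyme of lining epithelia that acts on retinoids and prostaglandins, was expressed in both tissues. Its probe (NM_028775, chr7:26587495-26587554) gave 16.61, 16.53 and 16.34 in stomach organoids and 11.32, 12.38 and 9.94 in esophageal organoids, all above background. The stomach values lay close together (SD 0.14, n = 3) and the esophageal ones spread widely (SD 1.23, n = 3), with mouse 4 lowest. The fold was 38.8 (difference -5.28, SE 0.53, limma adjusted p = 0.000462), with 25-fold without esophagus replicate 4 or with the slide as a block and 58.3-fold without esophagus replicate 2. Of the 12 genes of the 2a, 2b, 2f, 2g, 2s and 2t locus on chromosome 7, Cyp2s1 and Cyp2f2 were the only ones called, toward opposite ends of the locus and in opposite directions. Cyp2b10, a target of the constitutive androstane receptor, had 13.32, 12.89 and 10.69 in the stomach and 10.002, 11.96 and 8.24 in the esophagus. The groups overlapped, mouse 4 was lowest in both tissues, and within each mouse the stomach was higher. Its difference of -2.23 (SE 0.98) had a limma adjusted p of 0.22, and of 0.0288 with the mouse as a replicate block. Cyp2g1, of the olfactory lining, was on no array above background.

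Among the fatty acid hydroxylases of family 4, Cyp4v3, the counterpart of human CYP4V2, had 8.35, 8.13 and 7.48 in the stomach and 6.0, 6.04 and 5.63 in the esophagus. It was 4.28-fold higher in the stomach (difference -2.10, SE 0.25, limma adjusted p = 0.00112), and 7.04-fold with 75th percentile scaling. Cyp4f15 had 8.02, 6.76 and 6.0 in the stomach and was on no esophagus array above background. It was higher in the stomach by at least 3.92-fold (limma adjusted p = 0.0147), a call lost without esophagus replicate 2 (0.0546) or stomach replicate 2 (0.0555) and with a normexp offset of 50 (0.0839). The bound was 2.29-fold with that offset and 9.1-fold with 75th percentile scaling. Cyp4f13, Cyp4f16 and Cyp4f17 were detected in both tissues and had differences of -0.82, -0.67 and -0.84 (limma adjusted p = 0.154, 0.0574 and 0.0739), none past the threshold. Cyp4f16 passed with a normexp offset of 16 or 50 and with probes averaged (0.0425 to 0.0479), and Cyp4f17 without esophagus replicate 1. Cyp4f18, a leukotriene B4 hydroxylase of neutrophils, differed by -0.36 (limma adjusted p = 0.287). Cyp4f40 passed narrowly (limma adjusted p = 0.0451) with values on no array above background, and lost the call with the mouse as a replicate block and with any 1 array left out. The 7 genes of the 4a, 4b and 4x locus gave no call, and only Cyp4a10, a target of PPAR alpha, was detected on the 3 arrays of a tissue, the esophagus. Cyp4b1, of the airway lining, was above background on 1 esophagus array and Cyp4x1 on none.

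**Figure D2:**
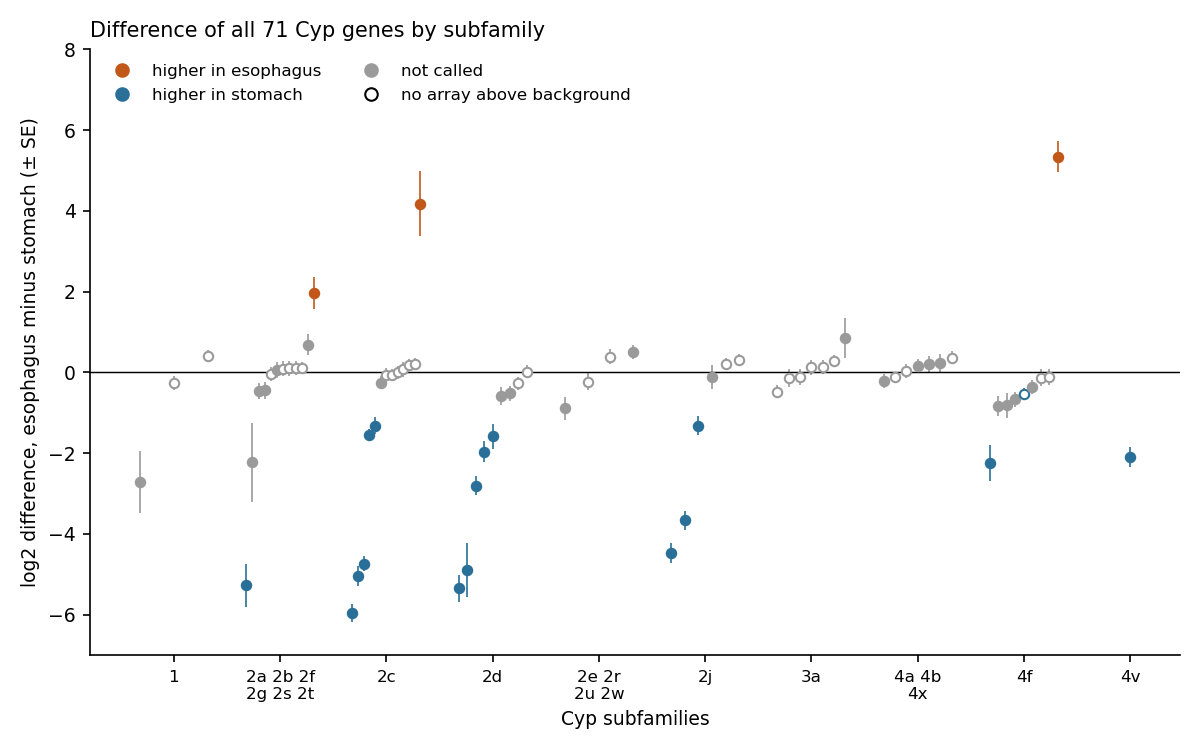
Difference in log2 intensity, esophagus minus stomach, of all 71 Cyp genes by subfamily, with the standard error of the limma fit. Open symbols are genes on no array above background, and colors mark a limma adjusted p under 0.05. The 2c, 2d and 2j genes split between called differences of -1.32 to -5.96 and uncalled ones of -0.58 to 0.30, apart from Cyp2c38 at 4.18.

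Family 1, the classic targets of the aryl hydrocarbon receptor, gave no call at the main setting. Cyp1a1, the usual reporter of that receptor, was on no array above background, with values of 4.24 to 4.89, and neither was Cyp1a2. Cyp1b1, which hydroxylates estradiol and retinol, had 8.99, 9.18 and 9.71 in stomach organoids and 8.57, 5.89 and 5.25 in esophageal organoids. The esophageal culture of mouse 1 lay close to the stomach cultures, the other two lay far below them, and the groups did not overlap. The difference of -2.72 (SE 0.76) had a limma adjusted p of 0.0592, and without esophagus replicate 1 the difference was -3.72 (adjusted p = 0.000217). With dim probes left out before adjustment, Cyp1b1 passed on all 6 arrays (adjusted p = 0.0324).

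Family 3 and the single genes of family 2 gave no call either. Cyp3a13, the Cyp3a enzyme known from the gut, was the only 1 of 7 family 3 genes above background. It had 12.43, 11.80 and 10.75 in the esophagus and 11.57, 10.88 and 9.998 in the stomach, with mouse 1 highest and mouse 4 lowest in both tissues. The groups overlapped, and within each mouse the esophagus was higher, by 0.85, 0.92 and 0.75. The difference of 0.84 (SE 0.50) had a limma adjusted p of 0.379, and of 0.0239 with the mouse as a replicate block. The second probe, also above background on all arrays, differed by -0.37 (adjusted p = 0.656). Cyp3a11, the main liver enzyme of the family and a target of the pregnane X receptor, was on no array above background. Cyp2r1, the vitamin D 25-hydroxylase of the liver, had 7.64, 7.99 and 7.53 in the esophagus and 8.85, 9.03 and 7.96 in the stomach, where mouse 4 lay within the esophageal range. Its difference of -0.89 had a limma adjusted p of 0.0987, and of 0.049 with the mouse as a replicate block. It also passed without stomach replicate 4 and with its probes averaged, and its second probe differed by -1.15 (adjusted p = 0.00416). Cyp2e1, the ethanol oxidase, and Cyp2w1, a gene of fetal gut, were on no array above background.

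Cyp2u1, which hydroxylates long-chain fatty acids, was detected in full in both tissues, by a probe that holds a long repeat. Bases 11 to 40 of this probe (chr3:130996343-130996402 of mm9, - strand) are shown with the repeat in capitals, beside the first 30 bases of its probe for NM_027816.
Cyp2u1, brightest probe: tgGTGTGTGTGTGTGTGTGTGTGTGTGTGT
Cyp2u1, NM_027816 probe: tacctcccctttggtccatttaaggagcta
The repeat runs over 32 of the 60 bases, and 57 probes of other gene names share at least 20 bases with the probe. Its values were 16.84, 17.14 and 16.94 in the esophagus and 16.49, 16.26 and 16.69 in the stomach. Of those 57 probes, 40 also had a mean log2 value over 15. The other 2 Cyp2u1 probes were on no array above background. With them in its place, 17 genes were detected in full in esophageal and 27 in stomach organoids.

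Of 18 genes with several probes, 5 were among the 20 called ones, and of their 6 further probes 1 was called the same way and 3 were on no array above background. Of the 17 further probes of the 13 uncalled genes, 14 were on no array above background and 1, of Cyp2r1, was called. The other 15 called genes rest on 1 probe. No probe of a called gene shared 20 bases with a probe of another gene name. Such sharing between Cyp genes was found for Cyp2c67 with Cyp2c68, for Cyp4a10 with Cyp4a31 and for Cyp3a44 with Cyp3a41b, a name outside the 71. Of these 5 of the 71 genes, none was called. Probes were compared only with the other probes of the array, not with transcripts. Binding of a probe to the transcript of a near copy was not tested.

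**Figure D3:**
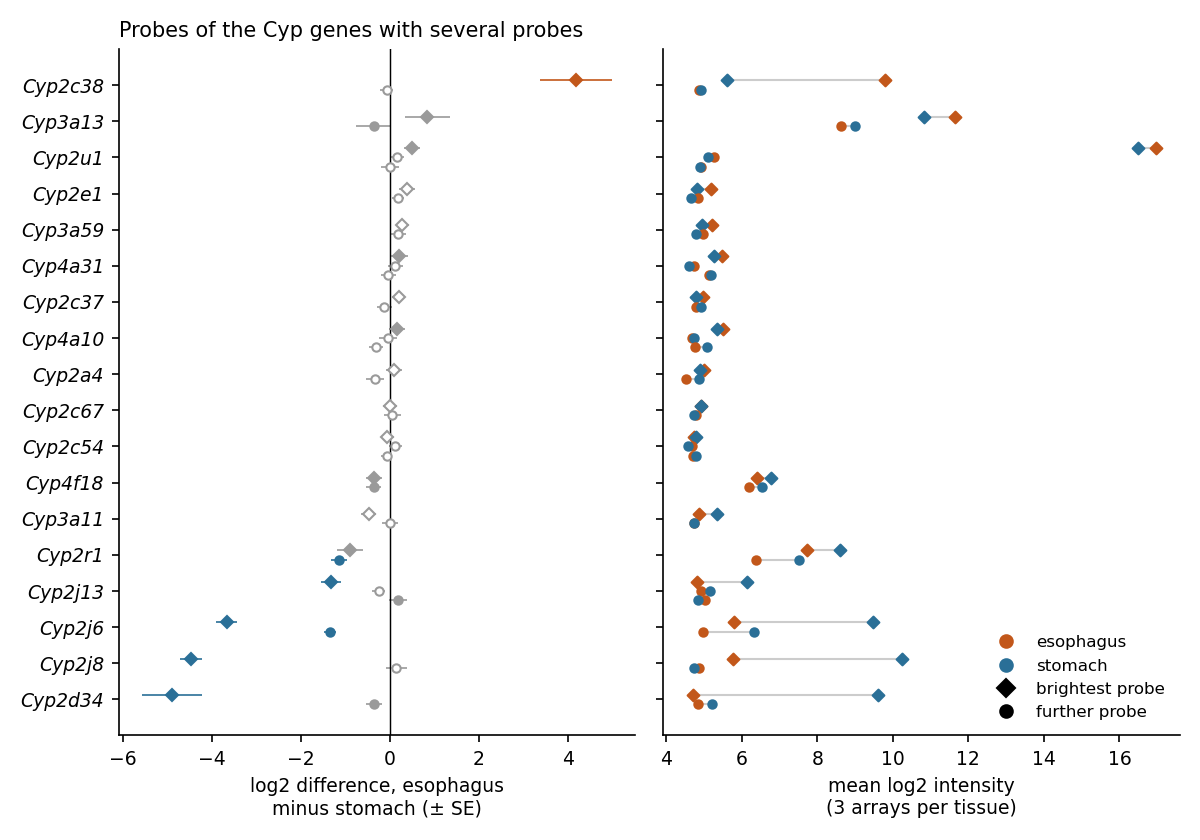
The 41 probes of the 18 Cyp genes with several probes. Left, difference in log2 intensity, esophagus minus stomach, with standard error (open symbols, on no array above background, color, limma adjusted p under 0.05), and right, mean log2 intensity of 3 arrays per tissue. Diamonds mark the brightest probe. Cyp2j6 has both probes higher in the stomach, and the further probes of Cyp2c38, Cyp2j8 and Cyp2d34 lie near 0.

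Along the loci, 1 pair of neighbors, Cyp2c29 and Cyp2c38, was called in opposite directions. In the 2c locus on chromosome 19 of mm9, Cyp2c38 follows directly on Cyp2c55, Cyp2c65, Cyp2c66 and Cyp2c29 in gene order among those measured, and the 7 genes after it were not called. Cyp2c23 lies 3852 kb beyond the rest. On chromosome 17, Cyp4f39 stands at the start of the 4f locus, followed by Cyp4f17 and Cyp4f16, which were not called. In the 2d locus, which spans 416 kb of chromosome 15, the called genes were not contiguous, with Cyp2d13 and Cyp2d40 at background between Cyp2d34 and Cyp2d26.

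**Figure D4:**
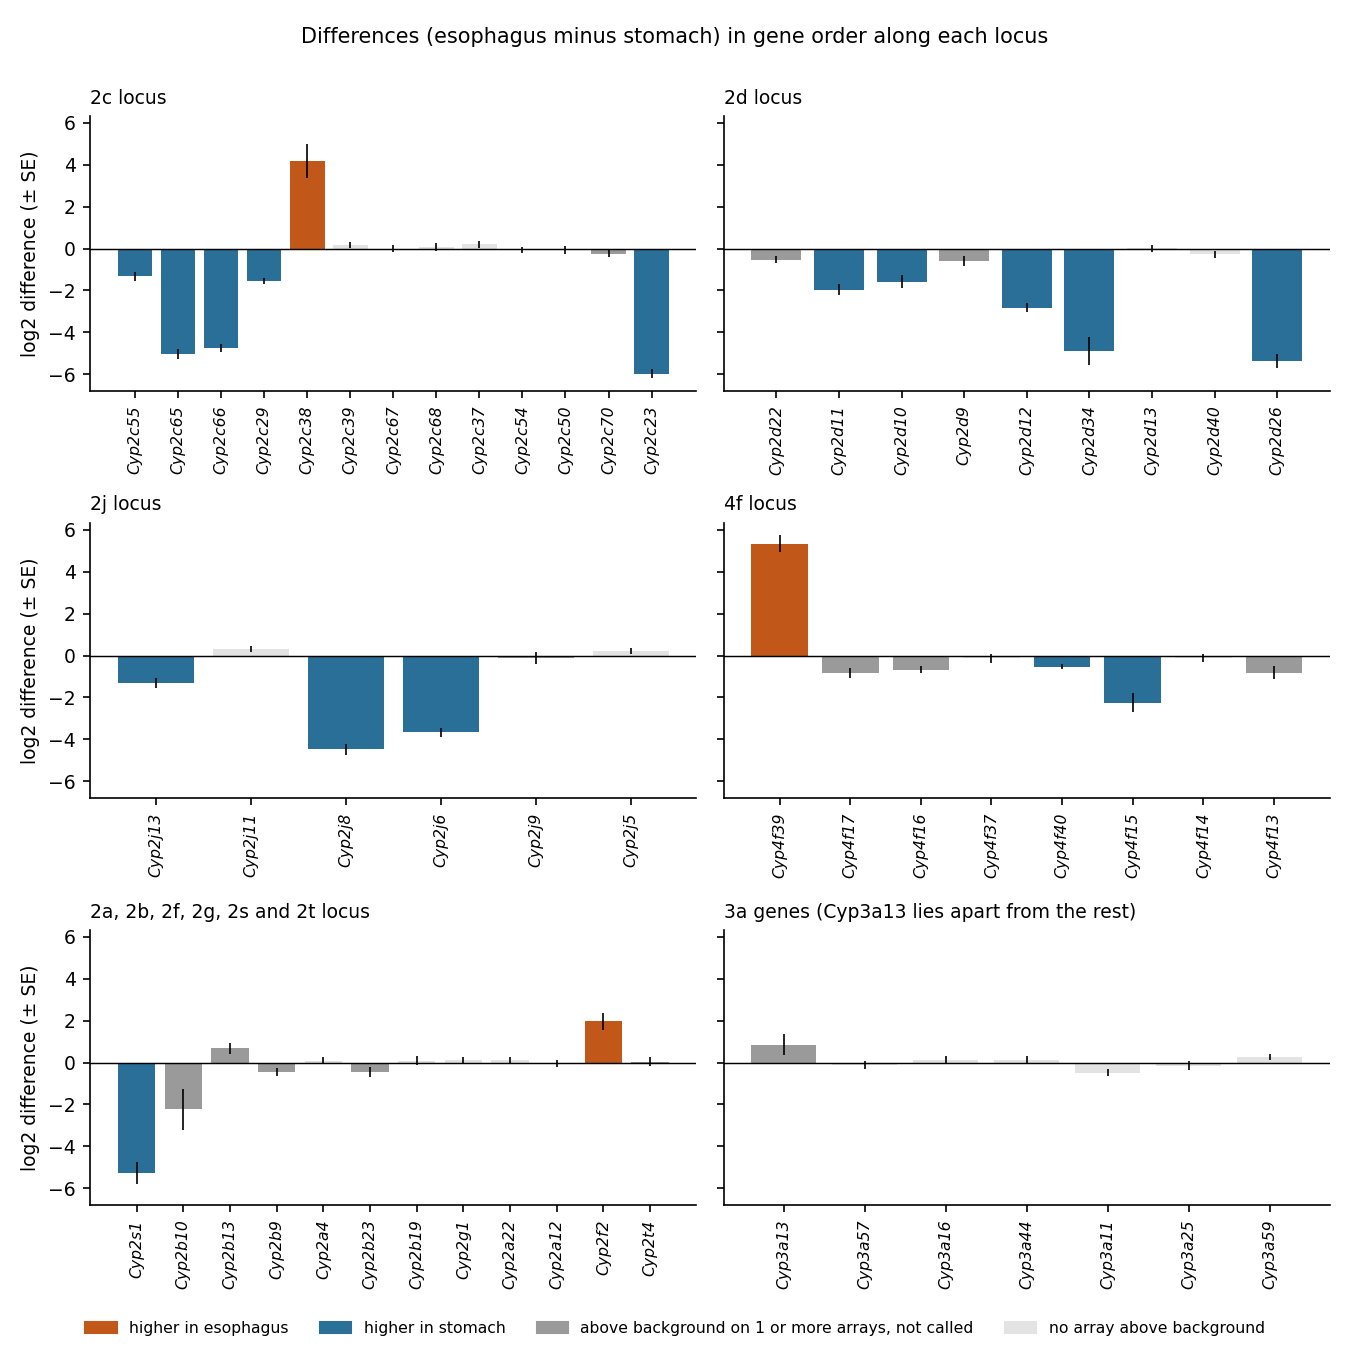
Difference in log2 intensity, esophagus minus stomach, with standard error, of the Cyp genes in their order along 6 loci (bars evenly spaced, not to distance). Colors mark a limma adjusted p under 0.05 and the palest bars genes on no array above background. In the 2c locus Cyp2c38 at 4.18 sits beside Cyp2c29 at -1.55.

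Arrays of the same tissue differed as well. Among the 18 genes detected in the esophagus, mouse 4 gave the lowest value for 15, while over all gene names detected there it was lowest for 29.8%. Among the 28 genes detected in the stomach, mouse 4 was lowest for 18, against 39% of all gene names. The median gap of mouse 4 to the tissue mean was -0.30 for esophageal and -0.23 for stomach organoids. For the esophagus, animal and slide cannot be told apart, and for the stomach, animal and day of harvest. Without esophagus replicate 4, there were 16 genes higher in stomach organoids and 4 higher in esophageal ones, and 19 of the 20 called genes stayed called.

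The genes that serve or regulate these enzymes were taken from 5 lists. As a measure for the list counts, 7.15% of all gene names were higher in esophageal and 7.7% in stomach organoids. Among gene names detected in at least 1 tissue, these shares were 12.8% and 13.9%. Of 34 called genes of the lists, 19 had a fold or bound over 1.5 times lower with a normexp offset of 50. With 75th percentile scaling, 19 had one over 1.5 times higher. Por, the reductase that feeds the Cyp enzymes, had means of 15.06 ± 0.45 (SD, n = 3) for esophageal organoids and 15.06 ± 0.30 (SD, n = 3) for stomach organoids, with a limma adjusted p of 0.997. All 19 electron donor and heme enzyme genes were above background on every array, and only Alad, an early enzyme of heme synthesis, was called, higher in the stomach (difference -1.09, SE 0.21, limma adjusted p = 0.0121). It was not called without stomach replicate 2 (adjusted p = 0.0548) or with 75th percentile scaling (0.0911). Cyb5a, cytochrome b5, and Alas1, the rate-limiting enzyme of heme synthesis, differed by -0.97 and -0.99 without passing (limma adjusted p = 0.0976 and 0.0663).

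Of 21 receptors and factors, 6 were higher in stomach organoids, 2 were higher in esophageal organoids and 13 were not called. Shares over all gene names were 7.7% and 7.15%. Hnf4a, a master factor of liver and gut genes, had 14.79, 14.39 and 14.86 in the stomach and was on no esophagus array above background (at least 810-fold, limma adjusted p = 8.28e-08), with bounds of 357-fold and 1872-fold under those settings. Its stomach values lay close together, far above all 3 esophageal ones. The bile acid receptor Nr1h4 was at least 6.23-fold and the pregnane X receptor Nr1i2 at least 4.47-fold higher in the stomach (limma adjusted p = 2.74e-05 and 0.00176). These bounds were 3.39-fold and 2.52-fold with the offset and 17.2-fold and 9.34-fold with the scaling. Pparg, a fatty acid receptor, was 23.3-fold higher in the stomach (limma adjusted p = 0.000331) and Nr1h3, an oxysterol receptor, 3.21-fold (limma adjusted p = 0.0105). The Nr1h3 call was lost without stomach replicate 1 (0.0537) or stomach replicate 2 (0.0555). In the other direction, Vdr, the vitamin D receptor, was 8.25-fold and Cebpa 4.94-fold higher in the esophagus (limma adjusted p = 0.000105 and 0.00214). The aryl hydrocarbon receptor itself was present in both, with Ahr at 10.59, 10.90 and 9.97 in the esophagus and 10.84, 10.61 and 10.77 in the stomach (difference -0.25, SE 0.24, limma adjusted p = 0.611). Its target Tiparp differed by 1.94 (SE 0.53, limma adjusted p = 0.0554), and its target Ahrr was above background on 1 stomach array.

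**Figure D5:**
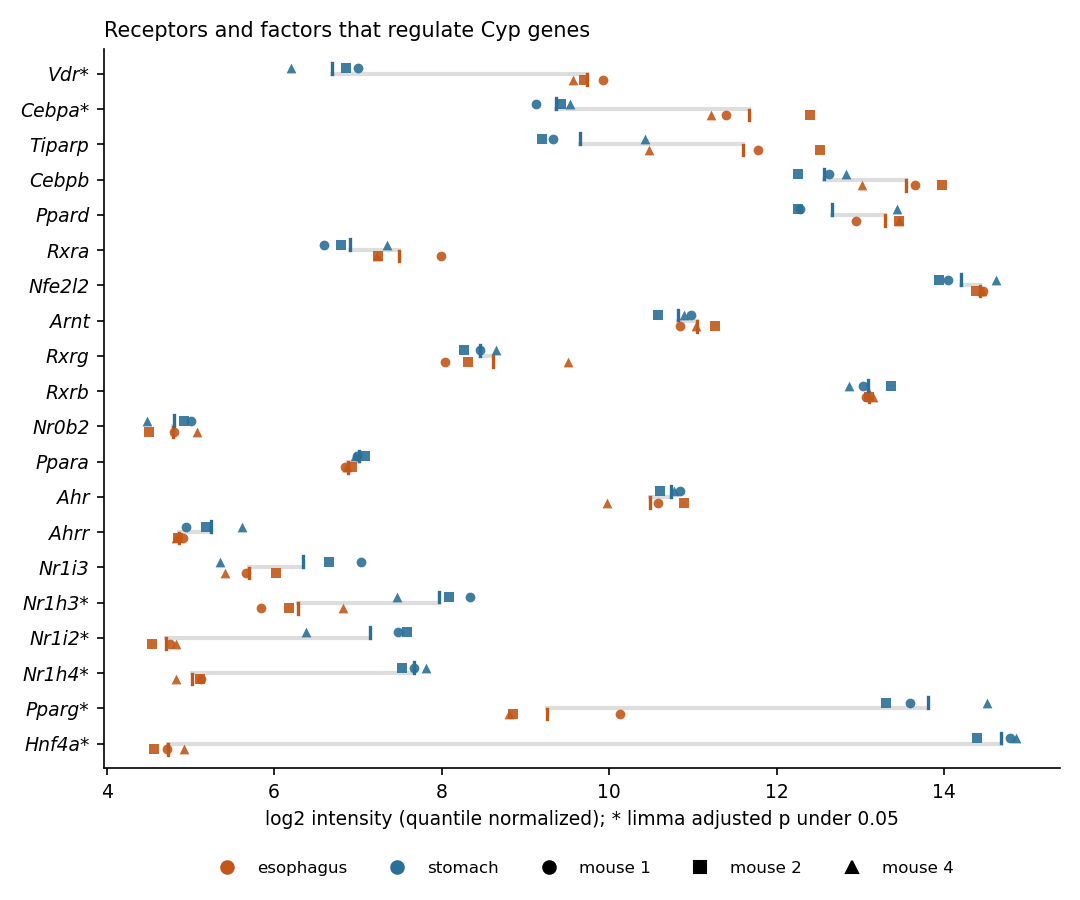
Log2 intensity of 20 of the 21 receptors and factors on each array, with the symbols, ticks and asterisks of the plot of detected Cyp genes. Hnf4a lies between 14.39 and 14.86 in the stomach and at background in the esophagus, while the 6 values of Ahr lie between 9.97 and 10.90.

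Of 15 epoxide hydrolase and oxylipin genes, 5 were higher in esophageal organoids, 2 were higher in stomach organoids and 8 were not called. Over all gene names the shares were 7.15% and 7.7%. Only Ephx3 stayed higher in the esophagus without stomach replicate 2, with a normexp offset of 50 or with trended and robust variances, and only Ephx3 and Alox12b without stomach replicate 1 or 4. Besides Alox12b, Aloxe3 and Ephx3, the esophageal ones were Alox15, at 12.35, 7.18 and 8.34, and Ptgs2, the inducible cyclooxygenase, at 8.40, 10.53 and 6.70 (limma adjusted p = 0.0419 and 0.047). With the mouse as a replicate block, the adjusted p of Ptgs2 was 0.0612. Their esophageal values spread widely, with mouse 1 highest for Alox15 and mouse 2 for Ptgs2. The stomach ones were Ephx2 and Ltc4s, the leukotriene C4 synthase (difference -3.09, SE 0.19, limma adjusted p = 2.95e-05).

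Of 34 measured conjugation genes, whose enzymes attach sulfate, glucuronic acid or other groups to products of oxidation, 9 were higher in stomach organoids, 6 were higher in esophageal organoids and 19 were not called. Among all gene names the shares were 7.7% and 7.15%. The sulfotransferase Sult1c2 had 16.43, 16.03 and 15.74 in the stomach and was on no esophagus array above background (at least 2197-fold, limma adjusted p = 8.28e-08). The glucuronosyltransferase Ugt2b34 was higher in the stomach by at least 839-fold (limma adjusted p = 4.31e-08). With a normexp offset of 50 these bounds were 957-fold and 368-fold, and with 75th percentile scaling 6051-fold and 1896-fold. The cholesterol sulfotransferase Sult2b1, another enzyme of squamous epithelia, had 14.30, 14.91 and 13.93 in the esophagus and 9.13, 9.22 and 9.93 in the stomach (difference 4.95, SE 0.30, limma adjusted p = 2.99e-05). Among the 6 genes higher in the esophagus, Ces2e had the largest fold, at 104. That fold was 59.1 with a normexp offset of 50, 173 with 75th percentile scaling and 18.1 with its probes averaged. The rest of the 6 were Nqo1, Ugt1a10, Ugt1a6a and Ugt1a6b. Nqo1, a quinone reductase, was 2.43-fold higher in the esophagus (limma adjusted p = 0.00968), a call lost without stomach replicate 1 (0.054) or stomach replicate 2 (0.052).

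Of 21 measured Cyp and related genes of other families, which mostly act on sterols, bile acids, vitamin D and retinoic acid, 2 were higher in esophageal organoids and 1 was higher in stomach organoids. These counts are near the shares over all gene names, 7.15% and 7.7%. Cyp7b1, an oxysterol hydroxylase, had 9.13, 7.46 and 7.43 in the esophagus and was on no stomach array above background (at least 9.76-fold, limma adjusted p = 0.00129), with bounds of 4.28-fold at a normexp offset of 50 and 15.2-fold with 75th percentile scaling. Cyp27a1, the sterol 27-hydroxylase, was higher in the esophagus by at least 2.53-fold (limma adjusted p = 0.0106), or 1.63-fold at that offset, and Cyp20a1 was 2.18-fold higher in the stomach (limma adjusted p = 0.0184). The call for Cyp20a1 was lost without esophagus replicate 2 or stomach replicate 1 and with 75th percentile scaling (adjusted p of 0.0547 to 0.0738), and that for Cyp27a1 without stomach replicate 1. Cyp24a1, the vitamin D 24-hydroxylase and a classic target of Vdr, was on no array above background.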

How the data were processed

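All 6 single-color Agilent mouse expression arrays were analysed. The authors read them with Agilent Feature Extraction 11.5.1.1, and the deposited scanner files hold spot intensity, local background and flags, not normalized. The deposited log2 values were background corrected and quantile normalized by the authors. Normexp on median intensities (offset 15) and quantile normalization rebuilt them with a median absolute difference of 0.00433, and the 2029 empty cells were the spots marked as outliers.

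Values of a probe were averaged and tested with lmFit and eBayes (limma 3.58.1, R 4.3.3), esophagus minus stomach, with Benjamini-Hochberg adjustment over 55681 probes. The procedure was tested on simulated data. Well above background is the scanner flag, required on at least 0.5 of the spots of a probe. A gene below it on a whole tissue is given as a bound, against the higher of its own log2 value and the lowest value above background on each array. Intensities are 3 per tissue, which limits precision. Coordinates are those of the files (mm9), and promoters and names are RefSeq's (GRCm38.p6), where 58 of 71 genes had a promoter. Names outside the pattern, such as Cyp2ab1 and Cyp4a12a (8 in all), were not used.

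Mice pair the arrays by the labels. Deviations from tissue means correlated at r = 0.025, 0.0119 and -0.00787 within a mouse, and at -0.0726 to 0.0405 between mice, and the mouse as a block was an alternative. Others covered scaling, offsets, outliers, filters, variances, slide, probes and each array left out. Named genes were 28 of 30 fixed by role (Cyp2a5 and Cyp2c44 are not among the names of the arrays) and the 10 other detected genes with the largest called differences. Other members are named where a count or a locus needed it, and they, the motifs and the sequences were chosen after values were seen. Members and lists were chosen with earlier results of these data known. Of the 21 receptors and factors, 1 is counted but not reported here.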

Additional observations from a re-analysis of the deposited data

How the results depend on the processing

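The 17 genes higher in the stomach ran from 14 to 18 when each array was left out, and the 3 higher in the esophagus from 1 to 4. They were 1 with a normexp offset of 50. The partner genes of all 5 lists gave 15 higher in the esophagus, 9 to 17 with each array left out, and 19 higher in the stomach. With the mouse as a replicate block, 18 Cyp genes were higher in stomach organoids and 4 in esophageal ones. Cyp2b10, Cyp2r1 and Cyp3a13 were gained, Cyp4f40 was lost, and no other Cyp call changed. Near-zero differences of uncalled genes changed sign: with 75th percentile scaling Cyp1a1 (0.22), Cyp4f14 (0.22) and Cyp4x1 (0.19), with probes averaged Cyp4a10 (-0.067), and with each array left out Cyp2j9 (-0.44 to 0.16), Cyp2g1 (-0.011 to 0.24) and Cyp2b19 (-0.042 to 0.22). That scaling moved the median difference of all genes from 0.03 to 0.19. The cause was not tested. Signal over background limits dim genes. Their folds are bounds where no array of a tissue was above background, apart from means of probes. Where only some arrays of a tissue were, a plain fold is given. Of the values of named genes under the alternatives, 526 kept direction and side of the threshold, 14 lost and 11 gained significance. Reading Cyp2u1 by its dim probes was chosen after seeing the data.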
